A study of Rattus norvegicus with 241 samples.

Results

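The circadian clock is a feedback loop of transcription that runs in nearly every cell. CLOCK and ARNTL (also called BMAL1) form the activator that binds E-box elements, and the PER and CRY proteins repress that activator. NR1D1 and NR1D2, the REV-ERB receptors, repress ARNTL, and DBP, TEF and HLF are the output factors that bind D-box elements. ARNTL mRNA and the mRNA of DBP and the REV-ERB genes peak at opposite times of day, so that a high DBP level with a low ARNTL level, or the reverse, marks the time at which a tissue was taken. PER1 and PER2 also respond to serum, glucocorticoids and stress.

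The 10 clock genes DBP, TEF, HLF, PER1, PER2, PER3, NR1D1, NR1D2, ARNTL and CLOCK were chosen by symbol, ignoring case, out of 21707 gene symbols in all tables, with earlier results from these tables in view. All 10 were measured in the single-cell tables. Bulk libraries gave values for 9, and HLF was not analysed there. The questions were whether these genes moved together in different sorted cells of a rat, and whether the treated and vehicle rats were taken at different points of the cycle.

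Female ACI (inbred) and SD (outbred) rats received the TGFβ receptor inhibitor LY2157299 (TGFBRi), 75 mg/kg by oral gavage 2 times a day, or the carboxymethylcellulose-based vehicle alone. The bulk libraries were made from sorted luminal, basal and CD45+ mammary cells. Virgin young ACI rats, dosed for 10 days at 35 days of age, were taken on day 0, 7 or 14 after the last dose, with 3 rats for each day and treatment. Virgin young SD rats, dosed at 24 days of age, were taken on day 0, 4 for each treatment. Adult ACI rats of 18 to 24 weeks, virgin or parous, were dosed for 10 days and taken on day 0, with 4 rats per group except in CD45+ cells, where the groups held 2 to 4. SD rats dosed from 21 days of age were given the carcinogen NMU at 50 mg/kg and taken 87 days later. Their glands came from vehicle tumor-bearing, TGFBRi tumor-bearing and TGFBRi tumor-free rats (3 each), and their tumors from EPCAM+ and CD45+ cells (3 a treatment). A further ACI cohort began a 21 day course at 38 days of age and carried an estradiol (E2) pellet or an empty pellet from 60 days. It gave luminal and CD45+ cells at the end of the tumor experiment, from 2 to 4 rats per group. With E2 these were vehicle tumor-bearing (4), TGFBRi tumor-bearing (2) and TGFBRi tumor-free rats (4). With an empty pellet they were vehicle (4) and TGFBRi rats (3), all tumor-free. In NMU and E2 rats alike, TGFBRi tumor-free against vehicle tumor-bearing joins treatment and tumor status. The E2 vehicle rats sequenced bore tumors and the vehicle rats with an empty pellet were tumor-free, so that in the comparison of E2 with no E2 among vehicle rats E2 and tumor cannot be told apart. The single-cell libraries were made on day 0 from sorted basal and luminal cells of young ACI rats (3 vehicle, 3 TGFBRi) and young SD rats (3 vehicle, 6 TGFBRi), and from whole glands of young SD rats (3 vehicle, 6 TGFBRi).

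The rats lived under 12 h of light and 12 h of dark. The time of day at which a rat was killed is not given in the sources used here, nor is the order of collection, so treatment and collection session cannot be told apart. Doses were 8 to 16 h apart, and the glands were digested in collagenase for 1 to 2 h at 37 °C before sorting. What these steps did to the clock genes was not tested.

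The 202 bulk libraries held 4194912 to 52314784 reads on genes. Luminal markers led in luminal sorts, basal markers in basal sorts and CD45+ markers in CD45+ sorts, except that NMU gland CD45+ cells reached a basal marker mean of 12.6 (log2) beside leukocyte markers at 10.3 to 12.5. Of the bulk libraries, 9 stood apart by more than 2.5 times the usual distance from the median of their experiment and sort. The distance was measured over genes with a mean of at least 50 and with all days and treatments of a sort pooled, not within a group. A library can therefore stand apart because of its day or treatment, and this was not tested. Among the 9 were the luminal libraries of rats LD2LR (day 7, vehicle), LD6R (day 7, TGFBRi) and LD20L (day 14, TGFBRi). CLOCK was at 95.2, 163 and 125 normalized reads in those 3, below all 15 other young ACI luminal libraries. One field of the labels calls LD2LR treated where its title and treatment tag call it control, and it was used as vehicle. In the single-cell data, pairs of libraries shared a median of 0.026% of cell barcodes (highest 2.51%, 741 pairs).

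The promoters of the members differed in the elements they held. Rat RefSeq sequences (GRCr8) from 250 bases before to 50 after the start were matched for 9 of the 10 members, and HLF was not matched. The letters CACGTG (E-box), TTATGTAA or TTACGTAA (D-box), AGGTCA (the half-site of ROR and REV-ERB receptors) and TGACGTCA (CRE) were searched on both strands; they do not overlap one another. Of the members, 4 promoters held a match, and they are shown as the members with any of these letters in this window, with CIART, a CLOCK and ARNTL repressor from the pathway list, for its repeated E-boxes. Matched letters are in capitals and each runs 5′ to 3′ on the gene's own strand.
TEF, chr7:115206577-115206876, plus strand: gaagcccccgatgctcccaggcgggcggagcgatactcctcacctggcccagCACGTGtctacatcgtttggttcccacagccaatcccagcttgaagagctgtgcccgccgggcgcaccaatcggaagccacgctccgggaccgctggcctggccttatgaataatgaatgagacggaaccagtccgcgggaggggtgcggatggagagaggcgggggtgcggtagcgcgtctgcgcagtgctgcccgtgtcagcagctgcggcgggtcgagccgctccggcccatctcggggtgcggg
PER2, chr9:99496944-99497243, minus strand: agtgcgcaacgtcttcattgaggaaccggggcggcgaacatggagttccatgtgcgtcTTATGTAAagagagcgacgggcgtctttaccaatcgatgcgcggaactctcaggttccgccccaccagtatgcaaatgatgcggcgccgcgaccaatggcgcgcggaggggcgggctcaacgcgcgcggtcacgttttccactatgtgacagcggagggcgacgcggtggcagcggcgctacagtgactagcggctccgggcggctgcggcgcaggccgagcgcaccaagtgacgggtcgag
NR1D2, chr15:9954784-9955083, plus strand: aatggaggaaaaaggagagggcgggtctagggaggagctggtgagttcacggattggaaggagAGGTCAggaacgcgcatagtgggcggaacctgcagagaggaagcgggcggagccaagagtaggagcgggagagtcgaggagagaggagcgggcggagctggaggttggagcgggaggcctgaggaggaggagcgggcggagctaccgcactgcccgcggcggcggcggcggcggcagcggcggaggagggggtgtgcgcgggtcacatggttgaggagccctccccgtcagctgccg
ARNTL, chr1:176766078-176766377, plus strand: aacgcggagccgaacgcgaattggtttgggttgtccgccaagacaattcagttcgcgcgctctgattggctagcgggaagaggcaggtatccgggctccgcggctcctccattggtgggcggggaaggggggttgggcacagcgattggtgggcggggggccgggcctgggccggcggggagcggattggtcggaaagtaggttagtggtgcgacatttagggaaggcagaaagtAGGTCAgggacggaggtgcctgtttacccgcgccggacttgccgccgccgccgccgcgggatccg
CIART, chr2:186112197-186112496, minus strand: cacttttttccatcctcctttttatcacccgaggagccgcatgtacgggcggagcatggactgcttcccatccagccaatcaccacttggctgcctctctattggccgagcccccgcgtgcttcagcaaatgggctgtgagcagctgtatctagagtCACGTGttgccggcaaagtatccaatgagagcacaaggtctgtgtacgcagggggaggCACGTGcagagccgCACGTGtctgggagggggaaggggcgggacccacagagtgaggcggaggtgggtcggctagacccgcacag
The TEF promoter held the E-box with its first base 198 bases before the start, and PER2 held the D-box at 192 bases before it. NR1D2 and ARNTL held AGGTCA at 187 and 15 bases before the start, and CIART held E-boxes at 93, 35 and 21 bases before it. None of the 9 held the CRE. Of 33469 rat promoters of the same length, 6.42% held the E-box, 1.01% the D-box, 16.2% AGGTCA and 1.83% the CRE; of the 9 members 1, 1, 2 and 0 did. The search says nothing of elements outside this window.

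In luminal cells of young ACI rats the clock output genes fell steeply between day 0 and day 7 after vehicle dosing ended. DBP, a D-box activator, stood at 1092, 1289 and 1563 normalized reads in the 3 vehicle rats of day 0, at 141, 187 and 328 on day 7, and at 133, 258 and 310 on day 14. The day 0 rats lay above all others, and days 7 and 14 overlapped. PER3, a PER family member, was at 732, 764 and 842 on day 0 and at 106.8, 116 and 146 on day 7. PER2, which represses CLOCK and ARNTL, was at 3434, 3714 and 4543 on day 0 and at 604, 706 and 738 on day 7. TEF, another D-box activator, was at 847, 876 and 911 and then at 71.4, 256 and 258. For all 4 the days were separate.

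On the log2(value + 1) scale the day 7 less day 0 difference was -2.66 (SE 0.49, adjusted p = 0.024) for DBP, -2.51 (SE 0.34, adjusted p = 0.00404) for PER2, -2.67 (SE 0.36, adjusted p = 0.00404) for PER3 and -2.38 (SE 0.47, adjusted p = 0.0285) for TEF, by limma with Benjamini-Hochberg adjustment over 15181 genes. These 4 were called lower of 9 members, where 0.336% of all genes tested were called lower. The median difference of the 9 members was -2.10, against 0.20 for all genes. By day 14, DBP (-2.56, SE 0.49) and NR1D1 (-1.72, SE 0.33), both at adjusted p = 0.0311, were lower than on day 0, 2 of 9 members where 0.204% of all genes were called lower. NR1D1, the REV-ERBα receptor, went from 1718, 1909 and 2138 to 442, 653 and 677. ARNTL went the other way, from 114, 121 and 184 on day 0 to 173, 283 and 497 on day 7 and to 375, 521 and 563 on day 14. The ARNTL difference of 1.80 (SE 0.45) by day 14 did not pass the test (adjusted p = 0.125).

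The PER2 and PER3 calls of day 7 held in all 25 alternatives. The DBP and TEF calls of day 7 were lost in 5 and 6 of 25, all but 1 each on leaving out 1 rat (LD2L, LD3L, LD3R or LD4R, and for TEF also LD2LR), and the day 14 calls in 6 (DBP) and 7 (NR1D1), on leaving out any rat of either group or, for NR1D1, LD7L. Without the luminal libraries that stand apart, 7 of 9 members were called lower on day 7 (3.73% of all genes) and 6 of 9 on day 14 (2.5%), and ARNTL was called higher on both days (1.45, adjusted p = 0.0141, and 1.80, adjusted p = 0.00152), where 3.38% and 2.58% of all genes were called higher. CLOCK was called on neither day. The libraries removed were of day 7 vehicle, day 7 TGFBRi and day 14 TGFBRi rats. The day 14 comparison of vehicle rats therefore kept the same rats, and only the spread shared by the model changed.

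The other sorts of the same rats differed in the same direction, without calls. In CD45+ cells, DBP was at 882, 1193 and 1483 on day 0, at 302, 330 and 468 on day 7 and at 358, 403 and 415 on day 14 in vehicle rats. These days did not overlap with day 0, and the differences of -1.69 (adjusted p = 0.14) and -1.57 (adjusted p = 0.0548) missed the threshold. In basal cells DBP was at 496, 741 and 924 on day 0 and at 143, 214 and 433 on day 7, again without overlap (-1.56, adjusted p = 0.31). Over both days and both sorts 0 of 36 member tests were called (0.0904% of all genes), with 13 at an unadjusted p under 0.05. At that unadjusted threshold also lay 1837 (day 7) and 1472 (day 14) of 15643 genes in basal cells. In CD45+ cells it was 861 and 2115 of 14761 genes. The percentages of all genes in this report are of adjusted calls only. Across these day comparisons, luminal cells included, DESeq2 on the recovered reads called 16 member tests and limma and edgeR 6 each.

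**Figure D1:**
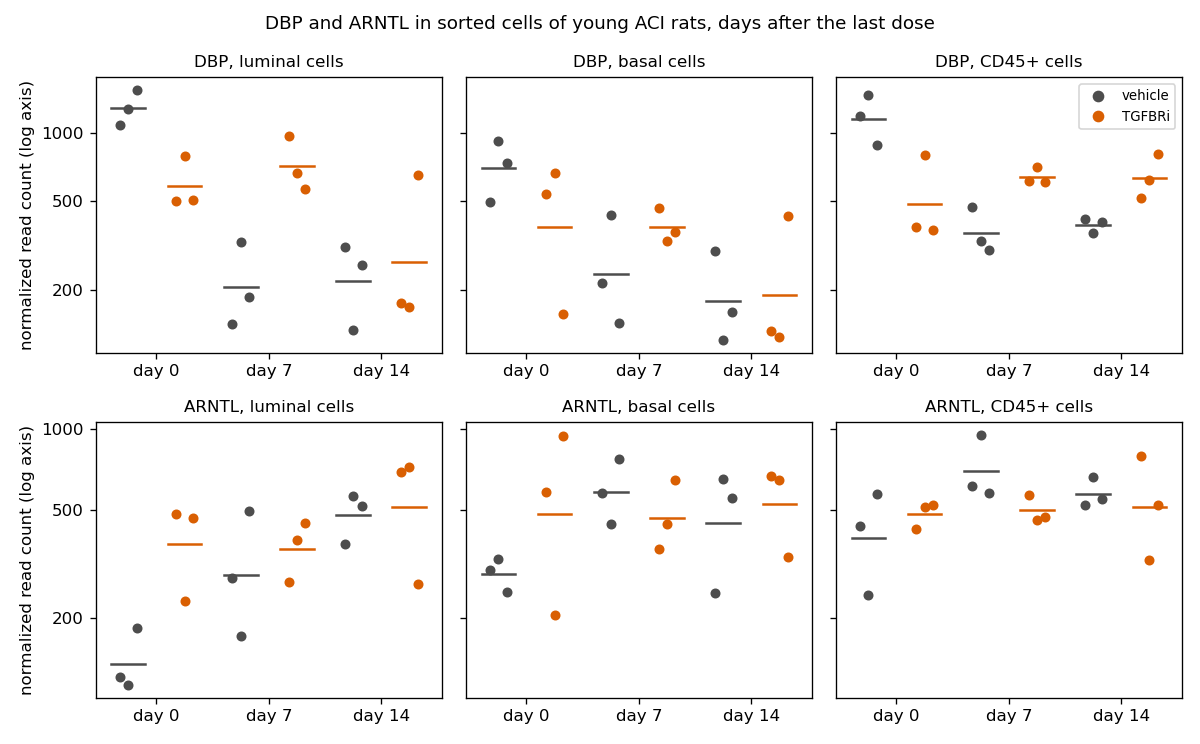
DBP and ARNTL in young ACI rats on a log axis of normalized read counts, in luminal, basal and CD45+ cells on days 0, 7 and 14 after the last dose. Each point is a rat and each line the geometric mean of 3 rats. Luminal DBP of vehicle rats lies at 1092 to 1563 on day 0 and at 141 to 328 on day 7, and treated rats lie below vehicle on day 0 and above it on day 7.

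Markers of dissociation and stress moved with day in the same libraries. The mean log2 level of the immediate early gene list was 14.63 to 14.94 in luminal cells of vehicle rats on day 0, 13.20 to 13.86 on day 7 and 13.02 to 13.98 on day 14. The list of glucocorticoid-responsive genes was at 12.03 to 12.48, 10.69 to 11.45 and 11.12 to 11.43. Day 0 did not overlap with the later days for either list. The same held in basal and CD45+ cells. The part of these lists in the clock gene differences was not tested, and day, age and collection session cannot be told apart.

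Between treated and vehicle young ACI rats, luminal DBP differed with opposite signs on day 0 and day 7. On day 0, TGFBRi rats had less DBP than vehicle rats in CD45+ cells, at 370, 382 and 802 normalized reads against 882, 1193 and 1483, with no overlap (-1.26, SE 0.31, adjusted p = 0.0422). This was 1 member of 9 called lower in that comparison, where 2.01% of all genes were. It was lost in 15 of 24 alternatives, among them edgeR and 13 of 18 in which 1 rat was left out (all but LD2LR, LD4R, LD7L, LD16L and LD20L). Luminal DBP on day 0 was 497, 506 and 790 after TGFBRi, below the 3 vehicle values of 1092 to 1563, and luminal ARNTL was 232, 470 and 485, above the vehicle values of 114 to 184. The differences of -1.15 (adjusted p = 0.198) and 1.45 (adjusted p = 0.115) were not called with all libraries.

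On day 7 the order was the opposite. Luminal DBP was 563, 667 and 975 after TGFBRi against 141, 187 and 328 after vehicle. PER2 was 1390, 2271 and 2325 against 604, 706 and 738, and PER3 was 240, 604 and 641 against 106.8, 116 and 146. None of these overlapped, and the share of all genes without overlap is not given. The differences of 1.80 (DBP, adjusted p = 0.255), 1.51 (PER2, adjusted p = 0.204) and 1.89 (PER3, adjusted p = 0.164) were not called, and in the 8 young ACI treatment comparisons other than CD45+ day 0, 0 of 72 member tests were called (0.555% of all genes), with 11 at an unadjusted p under 0.05. Under that unadjusted threshold, 5 of 9 members in luminal cells of day 7 stood beside 1172 of 15181 genes. In luminal cells of day 0, 3 of 9 stood beside 3013, and in basal cells of day 0, 0 of 9 beside 4023 of 15643. edgeR called 0 of the 81 tests in all 9 comparisons and DESeq2 called 5.

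Without the libraries that stand apart, which left 2 rats against 2 on day 7, DBP (1.91, SE 0.34, adjusted p = 0.0111), PER2 (1.78, SE 0.32, adjusted p = 0.0124), PER3 (2.31, SE 0.27, adjusted p = 0.00143) and TEF (1.37, SE 0.26, adjusted p = 0.0173) were called higher after TGFBRi. These were 4 of 9 members against 1.76% of all genes. Luminal DBP on day 0 was then called lower (adjusted p = 0.014) and ARNTL higher (adjusted p = 0.00649), 2 of 9 members where 13.8% of all genes were called. No day 0 luminal library was among those removed, so the same rats were compared and the spread shared by the model changed. With all libraries, 125 genes were called higher and 28 lower of 15181 in that comparison. The change of the treatment difference from day 0 to day 7 was 2.95 for DBP (SE 0.69, adjusted p = 0.28) and 1.87 for PER3 (SE 0.51, adjusted p = 0.407) with all libraries, and 3.06 (adjusted p = 0.0155) and 2.29 (adjusted p = 0.0184) without those that stand apart, 2 of 9 members against 0.153% of all genes. Over the 6 such comparisons with all libraries, 0 of 54 member tests were called (0.0351% of all genes), while edgeR called 0 and DESeq2 5. An unadjusted p under 0.05 held for 9 of the 54, and for 918 of 15643 to 2347 of 14761 genes a comparison.

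A single number that compares output with ARNTL was formed for every rat, the mean log2 of DBP, NR1D1, NR1D2, PER2 and PER3 less the log2 of ARNTL. ARNTL weighs most in it. Over 9 fractions of young and adult rats its mean r with the number was -0.85. For the output genes it was 0.65 (DBP), 0.43 (PER2), 0.27 (NR1D1), 0.19 (PER3) and 0.01 (NR1D2). In luminal cells of vehicle young ACI rats it was 3.90 ± 0.44 (SD, n = 3) on day 0, 0.68 ± 0.53 on day 7 and 0.53 ± 0.60 on day 14. After TGFBRi it was 2.52 ± 0.70, 1.77 ± 0.14 and 0.74 ± 0.60. The later means rest in part on libraries that stand apart. Without LD2LR, at 1.27, the day 7 vehicle mean was 0.39 (n = 2), without LD20L, at 1.40, the day 14 treated mean was 0.41, and without LD6R, at 1.72, the day 7 treated mean was 1.80. The treated rats were lower than vehicle rats on day 0 (2.06 to 3.32 against 3.39 to 4.18) and higher on day 7 (1.66 to 1.93 against 0.24 to 1.27), both without overlap, and overlapped on day 14. In basal and CD45+ cells the day 7 treated rats also lay above vehicle, at 1.14 to 1.71 against 0.50 to 0.66 and at 0.44 to 0.73 against -0.42 to 0.21. The title of the LD9R CD45+ library gives day 9 where its tag gives day 7, and it was used as day 7. Its value is the 0.44, and the other 2 rats were at 0.61 and 0.73. On day 0 both those sorts overlapped.

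**Figure D2:**
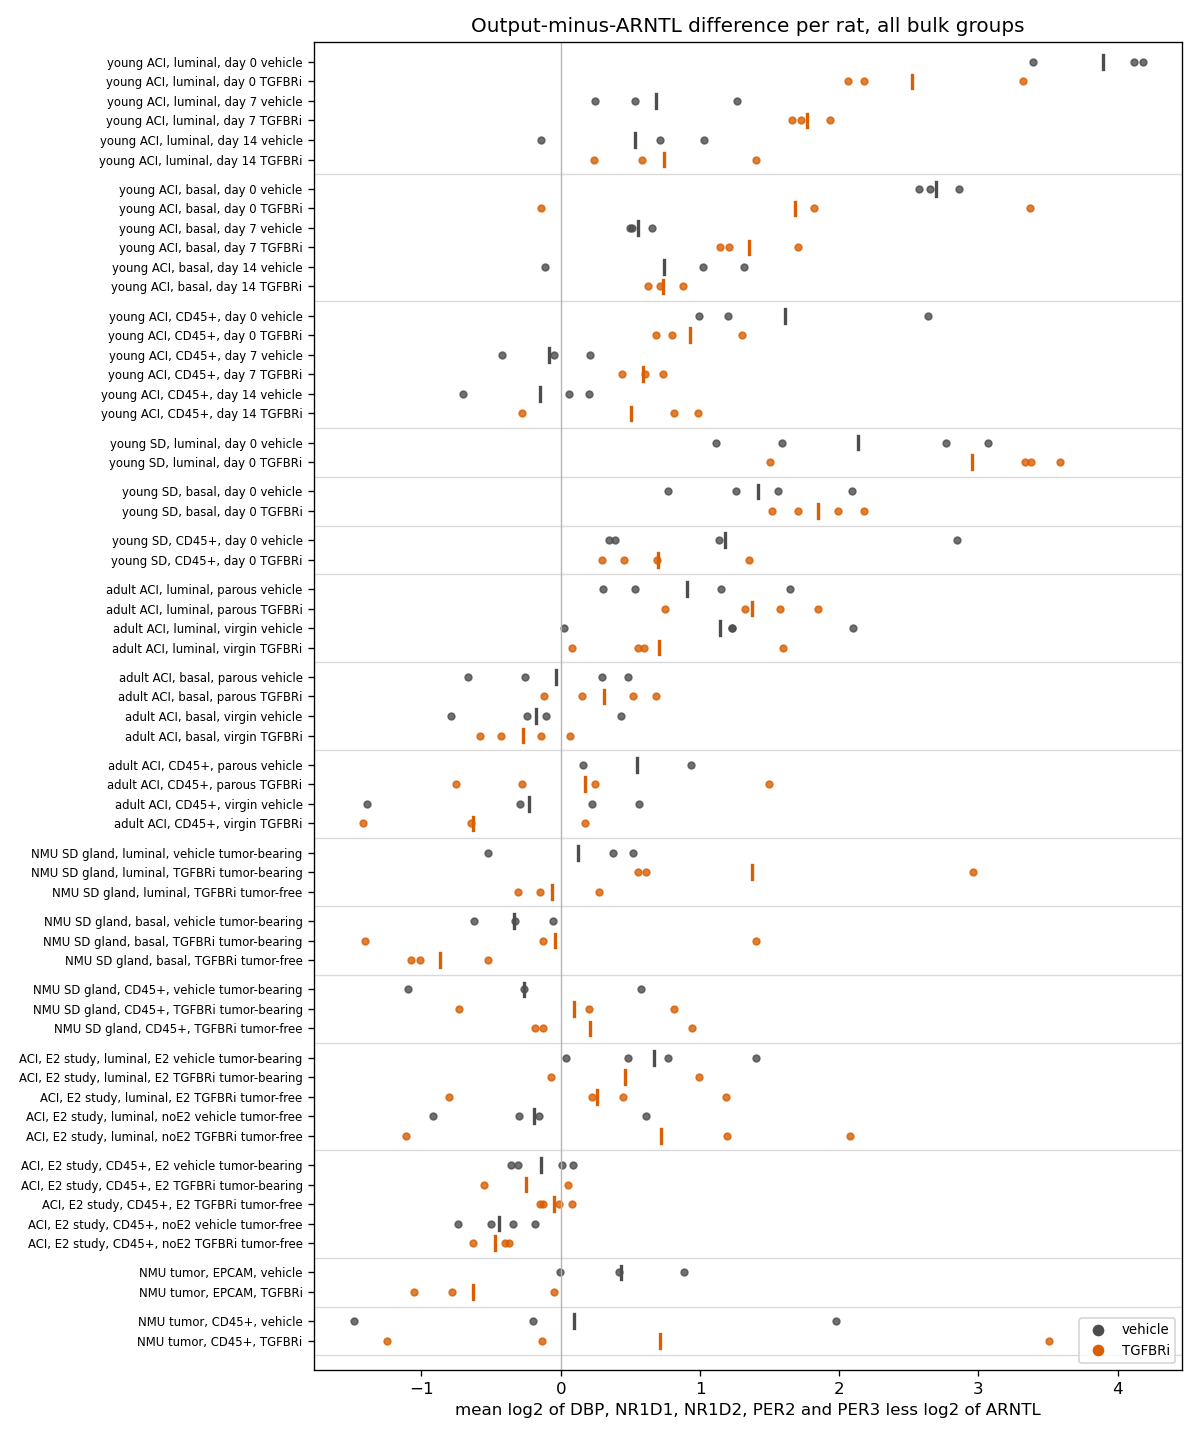
The output-minus-ARNTL difference (log2) of every bulk rat by experiment, sort and group, where a point is a rat and the vertical tick the group mean. Day 0 luminal cells of vehicle young ACI rats stand highest, at a mean of 3.90, and day 7 treated rats lie above day 7 vehicle rats in all 3 sorts.

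In the other bulk experiments treatment left no call in any member with all libraries. Values of some single genes did not overlap between groups. The share of all genes without overlap is not given in this report. Lack of overlap in an uncalled gene therefore describes its values and does not set clock genes apart from other genes. Young SD rats had 0 of 27 member tests called (0% of all genes), with 1 at an unadjusted p under 0.05, and edgeR and DESeq2 called 0 as well. Luminal DBP spanned 274 to 2969 in the 4 vehicle SD rats and 1177 to 2001 in the 4 treated ones, so that 1 group held a 10.8-fold spread. In adult ACI rats 0 of 54 were called (1.43% of all genes, edgeR 0, DESeq2 3). An unadjusted p under 0.05 held for 12 of the 54, and for 141 of 13618 to 3461 of 13442 genes a comparison. There, luminal PER1 of parous rats was 218 to 321 after vehicle and 487 to 987 after TGFBRi, and basal PER1 588 to 1407 and 1720 to 1916, both without overlap and both uncalled (luminal 1.39, SE 0.34, adjusted p = 0.15). Basal CLOCK of virgin rats was 408 to 873 after vehicle and 175, 185, 320 and 472 after TGFBRi (-1.16, SE 0.36, adjusted p = 0.0542). Without rat D_N2N at 472, whose library stands apart, it was called lower (-1.44, SE 0.35, adjusted p = 0.0241), 1 of 9 members where 4.42% of all genes were called lower. Luminal NR1D1 of the parous rats differed by 1.24 (SE 0.27, adjusted p = 0.0981). Parous and virgin vehicle rats did not separate in any call (0 of 27 tests, 0% of all genes, 1 at an unadjusted p under 0.05, edgeR 0, DESeq2 0).

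The glands of NMU rats gave 0 of 54 calls (0.417% of all genes, edgeR 0, DESeq2 4). An unadjusted p under 0.05 held for 10 of the 54, and for 163 of 13312 to 2688 of 14128 genes a comparison. Luminal PER1 was 45.3, 62.2 and 144 in vehicle tumor-bearing rats, 239, 248 and 259 in treated tumor-bearing rats and 154, 234 and 366 in treated tumor-free rats. The vehicle rats lay below both treated groups, and the differences of 1.73 (adjusted p = 0.129) and 1.66 (adjusted p = 0.127) were not called by limma. Both comparisons share the vehicle rats, and the one with treated tumor-free rats also differs in tumor status. In the NMU tumors 0 of 18 were called (0% of all genes, 2 at an unadjusted p under 0.05, edgeR 0, DESeq2 0). Those 2 were in EPCAM+ cells, where 278 of 12951 genes had such a p. The output-minus-ARNTL difference of EPCAM+ tumor cells was -0.01 to 0.88 after vehicle and -1.06 to -0.05 after TGFBRi, without overlap but with the nearest rats close. In CD45+ cells of the same tumors the groups overlapped and the means went the other way. They were 0.097 (-1.487 to 1.975) after vehicle and 0.71 (-1.245 to 3.507) after TGFBRi.

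In the E2 experiment, with and without E2, treatment gave 0 of 54 calls (0.00985% of all genes, edgeR 0, DESeq2 0). With E2, TGFBRi tumor-bearing and tumor-free rats were each set against the same tumor-bearing vehicle rats. The tumor-free comparison therefore differs in tumor status too. The 1 test at an unadjusted p under 0.05 was in luminal cells without E2. E2 against no E2 in vehicle rats gave 0 of 18 (0.883%, 3 at an unadjusted p under 0.05, edgeR 0, DESeq2 0). At that unadjusted threshold lay 1972 of 13590 genes in luminal and 1626 of 13483 in CD45+ cells. ARNTL in CD45+ cells of the E2 experiment was among the steadiest, at 1130 to 1582 over 17 rats, a 1.40-fold spread, and NR1D2 in young SD basal cells spread less, 1.33-fold over 8 rats. Luminal DBP of young ACI rats spread 11.8-fold over 18 rats.

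Between basal and luminal cells of the same day 0 vehicle rats, NR1D1 was the only member called. It was at 3105, 3404 and 4983 in basal and 1718, 1909 and 2138 in luminal cells (0.97, SE 0.30, adjusted p = 0.0203). This was 1 of 9 members, a share below the 20.5% of all genes called, so members did not differ more than other genes. The call was kept in 23 of 26 alternatives and lost on leaving out LD3L, LD3R or LD4R, the rats compared. That fit did not pair the sorts of a rat. With the rat as a block, which pairs the 2 sorts of 1 rat, 4 of 9 were called, where 34.6% of all genes were. Of the other 17 genes of the pathway, 14 were tested, and CIART was higher in basal cells (3.80, adjusted p = 1.34e-07) while NPAS2, which can replace CLOCK (-3.31, adjusted p = 0.00139), and BTRC, a subunit of the ligase that marks PER proteins for breakdown (-1.54, adjusted p = 0.000182), were lower. No pathway gene was called in any other bulk comparison.

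To ask whether the sorts of 1 rat moved together within a group, each member's log2 level was compared between 2 sorts across rats, after the mean of each group was subtracted. The subtraction removes differences between groups, such as those of day and treatment. A time of collection shared by a whole group therefore cannot be seen here. Of 135 such relations (9 members, 15 pairs of sorts), 1 passed the adjustment, and 11 did when group means were not subtracted. PER3 agreed between basal and luminal cells of young ACI rats (r = 0.823, n = 18, permutation p = 0.00028, adjusted p = 0.0378). Its rho was 0.839 (permutation p = 0.00088, adjusted p = 0.0844). The PER3 relation did not pass with rho, without the 2 rats farthest from the median or without rats with a library that stands apart. Of these last, LD2LR and LD20L stood apart in both sorts, LD6R in luminal cells only and LD11L in basal cells only. In the same pair of sorts all 9 members had r above 0 with a median of 0.77, and the median gene of 15067 had r = 0.56, so that most genes of a rat agreed there.

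DBP had r above 0 in 12 of 15 pairs of sorts. The median gene was also above 0 in most pairs. It was below 0 only in young ACI basal and CD45+ (-0.02), young ACI luminal and CD45+ (-0.03) and NMU luminal and tumor EPCAM+ cells (-0.16). The count for DBP therefore does not set it apart from other genes. Its r was 0.67 (n = 16) in adult ACI basal and luminal cells and 0.74 (n = 13) in adult luminal and CD45+ cells, where the median gene had 0.18 and 0.05. In young SD basal and luminal cells it was 0.29 beside 0.14. DBP was below 0 in 3 pairs that involve NMU rats, at -0.57, -0.29 and -0.32. In the same rats it was 0.87 between basal and luminal cells and 0.54 between gland and tumor CD45+ cells. Between CD45+ cells of the NMU gland and of the tumor of the same 6 rats all 9 members were above 0 (median 0.63, all genes 0.06). CLOCK went from 0.77 to -0.80 over the 15 pairs. None of the DBP or CLOCK relations passed the adjustment, and 19 of the 135 had an unadjusted permutation p under 0.05.

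**Figure D3:**
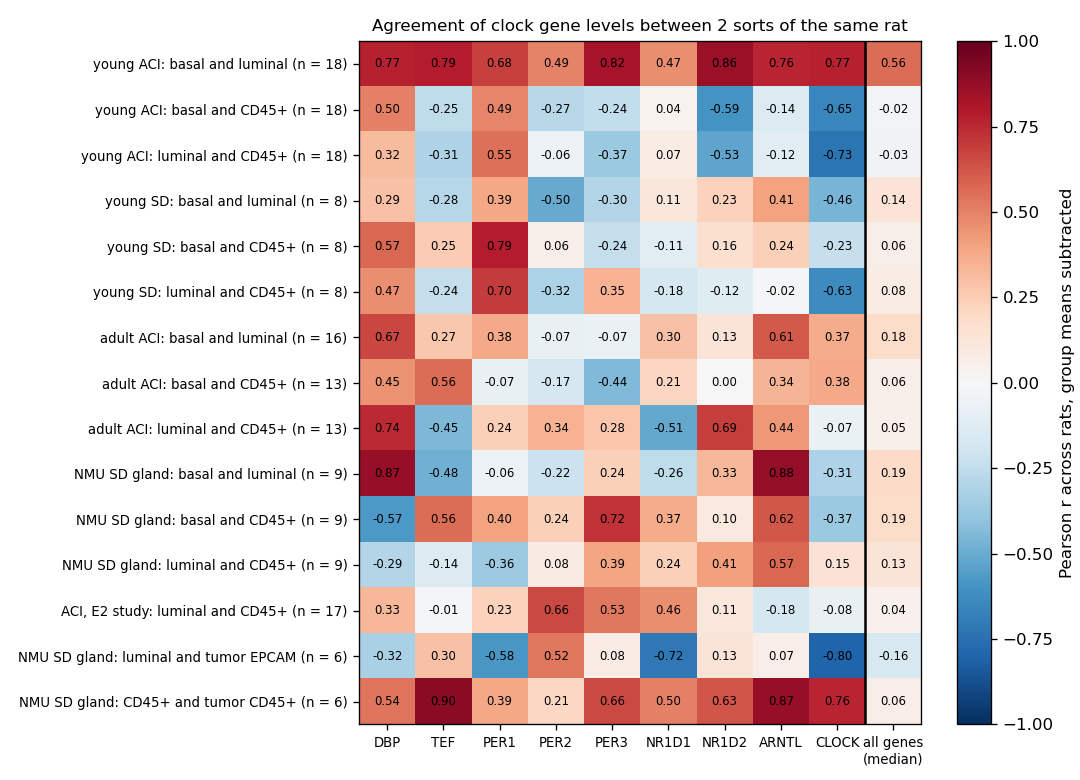
Pearson r between 2 sorts of the same rats, after subtraction of group means, for 9 clock genes and 15 pairs of sorts, with the median of all genes as a further line. The young ACI basal and luminal pair is above 0 for all 9 genes, as is its all-gene median of 0.56.

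Within a sort, the level of each member was also compared with that of ARNTL, and no relation passed the adjustment. Across rats, with group means subtracted, DBP had a negative r with ARNTL in 13 of 14 fractions (median -0.41, range -0.88 to 0.23). The share of all genes with a negative r is not given for these fractions. Several fractions are sorts of the same rats, so the 14 are not independent. The other members were mixed, from 2 of 14 below 0 for NR1D2 to 8 of 14 for PER1 and NR1D1. Of 112 relations 0 passed the adjustment, with 10 at an unadjusted permutation p under 0.05. Outside the pathway, the genes whose levels ran most with the output-minus-ARNTL difference over 9 fractions of young and adult rats were RASL10A (mean r = 0.54, above 0 in 9 of 9), TMEM176A (0.49) and CLTA (0.48). RIOK2 (-0.54) ran most against it. Among 7369 genes ranked the median was -0.01. These are descriptions over rats that share libraries between genes.

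The single-cell libraries were all of day 0, and their levels are given as CPM, the UMIs of a gene per 1000000 summed UMIs of a rat. In sorted basal cells of young ACI rats, 5 of 10 members were called by edgeR at an adjusted p of 0.1 (32.9% of all genes were). ARNTL was 16.98 to 18.7 CPM after TGFBRi and 22.3 to 35.1 after vehicle (log2 fold change -0.57, adjusted p = 0.0243), and PER1 was 9.74 to 11.4 and 22.96 to 26.6 (-1.05, adjusted p = 0.000565). PER2 (-0.51) and HLF (-1.42) were also lower. HLF was low throughout, at 1.98 to 3.13 and 7.53 to 9.26 CPM. NR1D1 was higher, at 25.4 to 33.5 against 20.7 to 24.8 (0.58, adjusted p = 0.00901).

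In luminal cells of the same ACI rats, 4 of 10 members were called (25.3% of all genes). ARNTL was 10.3 to 11.1 CPM after TGFBRi and 20.7 to 23.8 after vehicle (-0.74, adjusted p = 0.00889), and NR1D1 was 10.1 to 11.7 and 3.39 to 6.88 (1.28, adjusted p = 0.0107). PER1 (-1.11) and HLF (-1.94, from 17 and 89 UMIs in all) were lower. All 9 ACI calls held in all 9 alternatives. ARNTL was lower in both sorts while NR1D1, its repressor, was higher, and DBP was not called in either (-0.30 and -0.12). The output-minus-ARNTL difference of luminal cells was 1.22 to 1.27 after TGFBRi and 0.23 to 0.37 after vehicle, without overlap. In basal cells the groups overlapped.

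In sorted SD cells 2 of 10 members in basal (24.7% of all genes) and 3 of 10 in luminal cells (31.9%) were called, shares below those of all genes, and each was lower after TGFBRi. PER1 was 0.885 to 6.74 CPM after TGFBRi and 15.7 to 24.2 after vehicle in basal cells (-2.20, adjusted p = 0.0258), and 0.681 to 3.47 and 5.96 to 13.03 in luminal cells (-2.13, adjusted p = 0.0235). HLF was also lower, from 19 and 21 UMIs in basal cells (-2.002, adjusted p = 0.0982, kept in 4 of 12 alternatives and lost without SD1, SD3, SD9, SD11, SD12, SD13 or SD14 and with no filter on low counts) and 75 and 69 UMIs in luminal cells (-1.53, adjusted p = 0.0448). CLOCK was lower in luminal cells (-0.58, adjusted p = 0.0685). Without vehicle rat SD1 none of the 5 calls held, and without SD3 only luminal PER1 did. Of the other pathway genes 0 of 15 were called higher and 2 lower in SD basal cells, and 1 of 16 higher and 2 lower in SD luminal cells. The lower ones in both were BHLHE40 (-2.19 and -1.29) and BHLHE41 (-2.48 and -2.50), repressors induced by many signals, and the higher one was TIMELESS (1.497, adjusted p = 0.091). In ACI basal cells 3 of 16 were called higher (CIART, RORA and CSNK1D, 0.34 to 1.303) and 4 lower (BHLHE40, BHLHE41, ARNTL2 and NFIL3, -2.23 to -0.64). In ACI luminal cells 2 of 16 were higher (RORA and CSNK1D, 0.28 and 0.47) and 1 lower (BHLHE40, -0.80). Of all genes, 32.9% were called in ACI basal and 25.3% in ACI luminal cells.

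The immediate early list was lower after TGFBRi without overlap in 3 of these 4 sorts, at 14.0 to 14.2 against 14.6 to 15.0 (log2 of summed CPM) in ACI basal, 15.0 to 15.1 against 15.4 to 15.9 in ACI luminal and 12.4 to 13.6 against 13.8 to 13.9 in SD basal cells. The glucocorticoid-responsive list was lower without overlap in both SD sorts. PER1 was called lower in all 4 sorts, while in 3 of them 1 of the 2 lists overlapped. The part of the lists was not tested. On CPM without edgeR's scaling the median gene was lower by 0.14 to 0.20 (log2) after TGFBRi in the 4 sorts. CPM levels and fitted fold changes therefore differ, by amounts that vary between members.

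In the whole glands of young SD rats most members were called in the epithelial, stromal and endothelial classes, nearly all of them higher after TGFBRi. The 103524 cells fell into 37 clusters, of which 32 were named by their markers into 14 classes. A class is written as "like" because its name rests on markers only. In luminal progenitor-like cells, a single cluster led by the milk genes CSN2, WAP and CSN3, DBP was 1.37, 2.81 and 4.47 CPM in the 3 vehicle rats and 27.5, 41.02, 46.9, 58.8, 61.2 and 77.8 in the 6 TGFBRi rats. ARNTL was 13.9, 18.6 and 23.3 in vehicle and 2.21 to 7.78 in TGFBRi rats. The groups lay apart in both genes, in opposite directions, with log2 fold changes of 3.88 (adjusted p = 0.000486) and -1.91 (adjusted p = 0.00284). PER2 (1.58), PER3 (1.24), NR1D1 (1.05, adjusted p = 0.0991), PER1 (0.96), TEF (0.80) and HLF (1.51, 10 against 64 UMIs) rose too. In all, 8 of 10 members were called, against 28.4% of all genes, and the NR1D1 call was lost in 6 of 13 alternatives.

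The stromal classes moved the same way. In fibroblast-like cells DBP was 4.64, 6.41 and 9.07 CPM after vehicle and 37.6 to 66.4 after TGFBRi (2.92, adjusted p = 3.32e-05). ARNTL was 12.9, 33.5 and 43.6 against 11.9 to 13.6 (-1.38, adjusted p = 0.00211), and the lowest vehicle rat lay within the treated range. 8 of 10 members were called (29.7% of all genes), with PER2 (1.75), PER3 (1.62), TEF (1.35) and PER1 (1.205) higher. In pericyte and smooth muscle-like cells 8 of 9 were called (27.3%). DBP there was 2.30 to 7.31 against 28.4 to 37.9, and ARNTL 14.4, 37.6 and 38.98 against 5.96 to 10.9 (-2.01, adjusted p = 0.000402).

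In vascular endothelium-like cells 6 of 9 were called (31.6%), with DBP at 1.93, 2.96 and 3.00 against 15.1 to 28.8 (2.81, adjusted p = 2.49e-05). In lymphatic endothelium-like cells 6 of 9 were called (16.1%). One of them was PER2, which had 0 UMIs in the 3 vehicle rats and 12 in the 6 treated rats, so no fold change is given. The NR1D2 call there was kept in 3 of 13 alternatives. The other 2 epithelial classes had 7 of 10 calls each. Mature luminal-like cells (29% of all genes called) had DBP at 3.98 to 13.7 against 22.5 to 39.8, and basal-like cells (43.5%) at 5.09 to 7.74 against 7.16 to 37.4. Cluster 12 held most basal-like cells of vehicle rats and cluster 14 most of those of treated rats, so the basal values compare different clusters in part. All these directions held with every scaling tried.

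Fewer members were called in the leukocyte classes. Macrophage and monocyte-like cells had 4 of 9 called (9.03% of all genes), with DBP at 15.2 to 26.8 CPM against 42.5 to 85.1 (1.47, adjusted p = 0.00644) and PER1, PER2 and PER3 also higher. Those 3 PER calls were lost in 5, 6 and 7 of 13 alternatives, all 3 of them without ly11, ly14, veh1 or veh2, while the DBP call held in all 13. B cell-like cells had 1 of 9 called (17.5%), DBP at 1.79 to 8.499 against 9.53 to 14.6 (0.70, adjusted p = 0.0858). NK cell-like cells had 2 of 9 called (3.83%), PER1 higher (0.91) and NR1D1 lower (-1.06). Both calls were lost without veh2. In T cell-like cells (6.55%), dendritic cell-like cells (6.42%) and plasma cell-like cells (0.396%) 0 of 9 were called each, with 2, 2 and 1 members at an unadjusted p under 0.05. At that unadjusted threshold lay 2376 of 12787, 2079 of 11296 and 1035 of 9603 genes. T cell-like DBP was 6.95, 10.6 and 16.5 after vehicle and 12.1 to 23.2 after TGFBRi, which overlap. Dendritic cell-like DBP was 3.45 to 8.84 after vehicle and 9.71 to 17.25 after TGFBRi, without overlap and uncalled. Schwann cell-like cells had 3 of 9 called (9.59%), with DBP at 5.88 to 10.4 against 6.27 to 63.4. The NR1D1 call there was lost in 8 of 13 alternatives (DESeq2, and without ly1, ly4, ly6, ly11, ly14, veh1 or veh4), and the DBP call fell with it without ly4, ly11 or veh4.

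**Figure D4:**
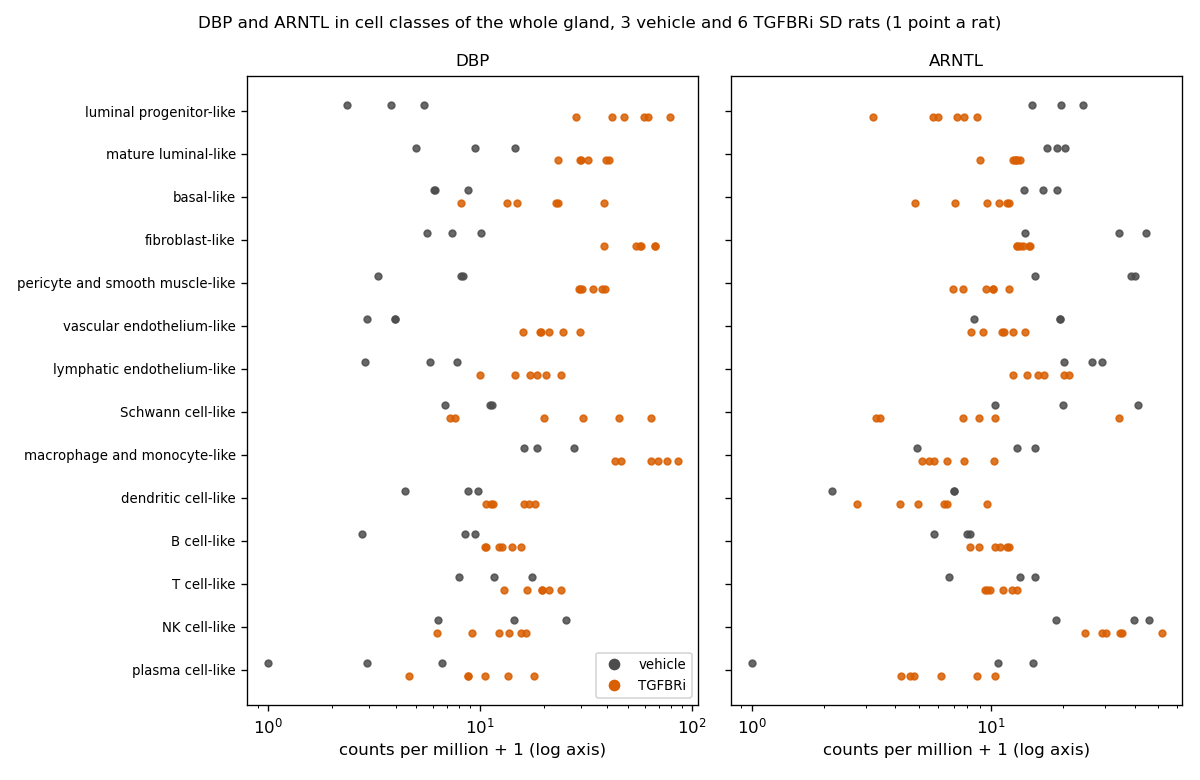
DBP and ARNTL in the 14 whole-gland classes of young SD rats, as CPM + 1 on a log axis, with a point for each of 3 vehicle and 6 TGFBRi rats. DBP of treated rats lies above vehicle in the luminal progenitor-like, mature luminal-like, fibroblast-like, pericyte, vascular and lymphatic classes. It also does so in macrophage and monocyte-like, B cell-like and dendritic cell-like cells. The groups overlap in basal-like, T cell-like, NK cell-like, plasma cell-like and Schwann cell-like cells.

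Over the 14 classes 60 of 130 member tests were called (19.9% of all genes in either direction), 53 higher and 7 lower after TGFBRi. The 7 lower ones were ARNTL in 6 classes and NR1D1 in NK cell-like cells. CLOCK was called in no class. The DBP call of B cell-like cells was lost without ly1, ly4, ly6, ly11 or veh2, and that of Schwann cell-like cells without ly4, ly11, veh2 or veh4. The ARNTL call was lost in vascular endothelium-like cells without ly4, ly6, veh1 or veh2 and in basal-like cells without veh1. DESeq2 called 59. The count ranged from 43 to 64 when 1 rat was left out, and no call changed direction. The output-minus-ARNTL difference lay apart in 7 of the 14 classes, all epithelial, stromal and endothelial, for example -1.09 to -0.13 against 2.01 to 3.91 in luminal progenitor-like and -1.41 to -0.39 against 1.504 to 2.61 in pericyte and smooth muscle-like cells. It overlapped in the other 7, the leukocyte and Schwann cell-like classes, for example -0.42 to 0.90 against -0.09 to 0.38 in T cell-like cells.

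**Figure D5:**
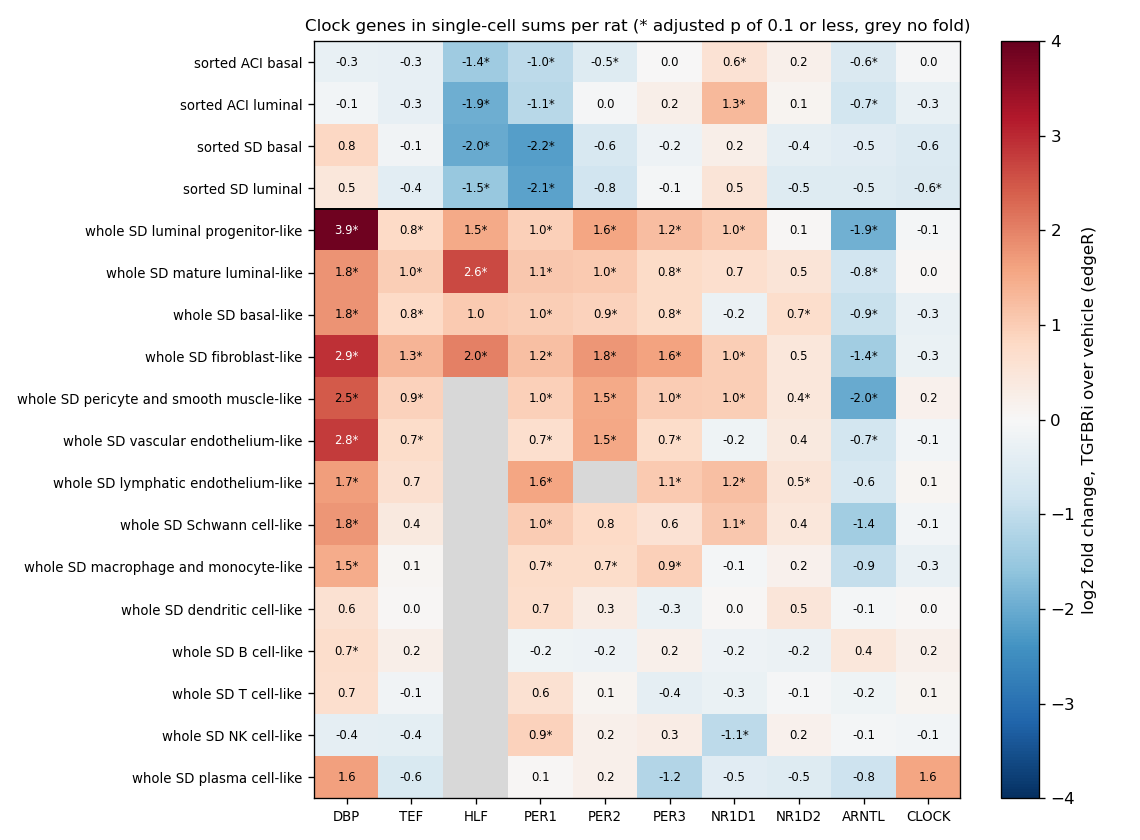
The edgeR log2 fold change of TGFBRi over vehicle for each clock gene in the 4 sorted and 14 whole-gland single-cell comparisons. A star marks an adjusted p of 0.1 or less and grey means that no fold change is given. PER1 is lower in all 4 sorted comparisons and starred higher in 10 whole-gland classes.

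Whether a class differed more between treatments than the other classes of the same rats was tested per rat, as the log2(CPM + 1) level of the class less the mean of the other named classes, by an exact two-sided permutation test of 3 against 6 rats (84 splits, smallest possible p = 0.0119), adjusted over 28 tests of DBP and ARNTL. This test was added after the levels had been seen. Each class enters the mean that the others are compared with, so a large difference in some classes lowers that of the rest. 9 of 28 passed, each at the smallest p (adjusted p = 0.037). For DBP the treated-minus-vehicle difference was larger than elsewhere in luminal progenitor-like (2.25), fibroblast-like (1.3), vascular endothelium-like (0.93) and pericyte and smooth muscle-like cells (0.81), and smaller in T cell-like (-1.11) and NK cell-like cells (-2.03). For ARNTL it was above that of the other classes in B cell-like (1.15) and T cell-like cells (0.58) and below it in pericyte and smooth muscle-like cells (-1.15). With a pseudocount of 5 in place of 1 the same classes passed. The DBP difference was then 0.52 in vascular endothelium-like and 0.65 in pericyte and smooth muscle-like cells.

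Deviations from the group were compared between the classes of a rat. Among the 3 vehicle rats, veh4 had the lowest ARNTL in 12 of 14 classes, the lowest CLOCK in 13 and the lowest DBP in 10. Its ARNTL was 12.9 CPM in fibroblast-like cells (33.5 and 43.6 in the other vehicle rats), 14.4 in pericyte and smooth muscle-like cells (37.6 and 38.98) and 5.68 in T cell-like cells (12.3 and 14.3 in the others), whereas in luminal progenitor-like cells it was 23.3, the highest of the 3. In lymphatic endothelium-like cells it was also the highest, at 28.3. With group means subtracted, ARNTL agreed between classes across the 9 rats with a mean r of 0.41 over 55 pairs of 11 classes, above 0 in 48 of 55, and the median of 6471 genes was 0.18. CLOCK (0.28) and PER1 (0.22) were also above that median, and DBP (0.17), PER3 (0.14), NR1D2 (0.12) and TEF (0.06) were below it. The classes of a rat share a library, whose part in this was not tested.

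Over the 14 classes the 17 other pathway genes were called at about the share of all genes, 19.9%. Those named here were among the calls. CRY2, the partner of PER proteins, rose in 6 of 14 classes. It rose by 1.21 in fibroblast-like, 1.18 in luminal progenitor-like and 0.91 in Schwann cell-like cells. The rise was 0.74 in mature luminal-like, 0.68 in pericyte and smooth muscle-like and 0.40 in vascular endothelium-like cells. CRY1 fell by 1.13 in luminal progenitor-like cells and was lower in B cell-like (-0.25), T cell-like (-0.41) and Schwann cell-like cells (-0.95). NPAS2 was lower in pericyte and smooth muscle-like cells (-1.94). NFIL3, the D-box repressor, rose in 5 classes and fell in 2, B cell-like (-0.90) and luminal progenitor-like cells (-0.96). BHLHE40 rose in 4 classes and fell in mature luminal-like cells (-1.13). The counts of pathway genes called ran from 0 in plasma cell-like, NK cell-like and dendritic cell-like cells to 6 of 17 in basal-like cells, where 43.5% of all genes were called, and 5 of 15 in luminal progenitor-like cells, where 28.4% were.

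The glucocorticoid-responsive list was higher after TGFBRi without overlap in 6 of the 14 classes (Schwann cell-like, basal-like, fibroblast-like, lymphatic endothelium-like, pericyte and smooth muscle-like and vascular endothelium-like cells) and the immediate early list in 4. Luminal progenitor-like cells, with the largest DBP difference, overlapped in both lists. The part of these lists in the clock gene differences was not tested.

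Set side by side, the young SD rats of day 0 gave different values in each experiment, from rats with different labels. Treated less vehicle DBP was 3.88 in luminal progenitor-like and 1.79 in mature luminal-like cells of the whole gland, 0.46 (adjusted p = 0.442) in sorted luminal single cells and 0.55 (adjusted p = 1.00) in sorted luminal bulk cells. PER1 was called higher in 10 of 14 whole-gland classes and lower in the 2 sorted SD single-cell comparisons. Luminal cells of young ACI rats on day 0 also differed between bulk and sorted single cells. The output-minus-ARNTL difference of treated rats lay below vehicle in bulk (2.06 to 3.32 against 3.39 to 4.18) and above it in single cells (1.22 to 1.27 against 0.23 to 0.37), without overlap in either. The ARNTL difference was 1.45 in bulk (adjusted p = 0.115, not called) and -0.74 in single cells (adjusted p = 0.00889). ARNTL is part of the output-minus-ARNTL difference, so these are not separate results. In the single cells, on log2 CPM, ARNTL differed by -0.96 and the output genes went both ways. NR1D1 was at 0.92, PER3 at -0.04, NR1D2 at -0.15, PER2 at -0.32 and DBP at -0.40. In bulk the median difference of the 9 members was 0.23. The experiments differ in cell preparation and library chemistry, and these cannot be told apart from the time of collection.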

How the data were processed

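The members and gene lists were chosen with earlier results of these data known. Bulk reads (75 bases, single-end, SMARTer v4 libraries) were aligned with STAR 2.5.1b to rn6 and counted without strand by HTSeq. The deposited bulk values are read counts divided by DESeq2 1.30.1 size factors, a normalized signal per gene. Whole reads were recovered from them for 100% of 2526805 values within 0.001 read, giving the depth, and 23.1 to 42.5% of reads fell on no gene where the authors' files give it. The deposited single-cell files hold UMI counts per cell from Cell Ranger 4.0.0 (sorted cells, 3′ kit) and 7.0.0 (whole glands, 5′ kit).

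Bulk values were tested as log2(value + 1) with limma 3.58.1 (trend, robust), all groups of a sort in 1 model, over genes with a sum of at least 10, and called at an adjusted p of 0.05. Fold changes on this scale understate the change of low genes. The intervals given are between rats, which the labels name. Parts of 1 rat's library were merged. edgeR 4.0.16 and DESeq2 1.42.0 on recovered reads were alternatives. UMI sums per rat and class, of at least 10 cells and 10 UMIs, were tested with edgeR's quasi-likelihood test at an adjusted p of 0.1. Adjustment was by Benjamini-Hochberg over all genes. edgeR fold changes carry no SE. Whole-gland cells (103524, scanpy 1.11.5) were clustered, and 5 clusters of 7336 cells (7.09%) stayed unnamed. A doublet caller marked 0 to 3.42% of cells a library and was not used, so doublets remain. Agreement between sorts used 100000 permutations within groups (exact under 10 rats), adjusted over 135 relations. The genes named were the 10 members, the pathway list of 17, and the genes most like the output-minus-ARNTL difference. The class-difference test, the ARNTL relations and the fits without libraries that stand apart were added after the data had been seen.

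On simulated data, limma recovered 94.5% of 200 genes changed 4-fold (14990 genes) and 4% of those changed 2-fold (14998 genes) for day 7 against day 0 in luminal cells, and edgeR recovered 81.5% of 2-fold changes (14988 genes) in fibroblast-like sums. The spread between rats was set to a single value for all genes in each simulation, smaller for the fibroblast-like sums. It was not estimated from these data, so the shares hold for those settings only. Promoters were from RefSeq GRCr8, another build than the alignments.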

Additional observations from a re-analysis of the deposited data

Results flagged for a closer look

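In young SD bulk luminal cells, treated rat D7R stood apart from the other 3 treated rats, with an output-minus-ARNTL difference of 1.51 (others 3.34 to 3.59) and ARNTL at 338 normalized reads (others 70.3 to 113). In basal cells, treated rat D8N had DBP at 696 (others 404 to 450). In the whole glands, treated rat ly1 had a difference of -1.33 in NK cell-like cells (others -0.74 to -0.40) and ly6 one of 3.91 in luminal progenitor-like cells (others 2.01 to 2.69). ARNTL was 33.5 CPM in Schwann cell-like cells of ly2 (others 2.33 to 9.40) and 8.04 in mature luminal-like cells of ly6 (others 11.4 to 12.3). These 7 came from 114 groups tested for a rat far from the rest, and chance alone marks about 1 in 20 groups.

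The treatment difference of a class departed from that of the other whole-gland classes in 9 cases. Each had an exact permutation p of 0.0119, the smallest that 3 against 6 rats allow, and an adjusted p of 0.037. The test was added after the levels had been seen. Each class enters the mean that the others are compared with, so the cases are not independent. For DBP these were luminal progenitor-like (2.25), fibroblast-like (1.3), vascular endothelium-like (0.934), pericyte and smooth muscle-like (0.807), T cell-like (-1.11) and NK cell-like cells (-2.03). For ARNTL they were B cell-like (1.15), T cell-like (0.575) and pericyte and smooth muscle-like cells (-1.15). With a pseudocount of 5 the same cases passed, and the DBP value of vascular endothelium-like cells was 0.522.

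Cells of the 5 unnamed whole-gland clusters entered no comparison. Their DBP was 36.3 CPM on average in the 6 treated rats and 2.21 to 9.22 in the 3 vehicle rats (mean 5.73).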

How the results depend on the processing

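No clock gene call changed direction under any alternative. Among values of single genes, 983 kept their side of the threshold and 137 fell below it. Counts of member calls moved as follows, and the cause was not tested where none is given. In young ACI treatment comparisons, 1 call became 5 with DESeq2, 0 with edgeR, 4 with only the groups compared, 7 without libraries that stand apart and 0 to 1 on leaving out a rat. In adult ACI rats, 0 became 3 with DESeq2, 1 with a mean of at least 50, 1 (basal CLOCK) without libraries that stand apart and 0 to 1 on leaving out a rat. In NMU glands, 0 became 4 with DESeq2 and 0 to 1 on leaving out a rat, and in the E2 experiment 0 to 1. For day 7 and 14 against day 0, 6 became 16 with DESeq2, 10 with a mean of at least 50, 15 without libraries that stand apart and 2 (without LD3R) to 10 (without LD20L) on leaving out a rat. For the change of the treatment effect with day, 0 became 5 with DESeq2, 2 without libraries that stand apart and 0 to 2 on leaving out a rat. For basal against luminal, 1 became 4 with only the groups compared, 4 with the rat as replicate block, which pairs the sorts of a rat, 2 without libraries that stand apart and 0 to 1 on leaving out a rat. Sorted SD single cells gave 5, and 0 (without SD1) to 10 (without SD14) on leaving out a rat. Sorted ACI cells gave 9 to 10 and whole glands 43 to 64 against 60. Relations between sorts went from 1 to 0 with Spearman's rho, without libraries that stand apart or without the 2 farthest rats, and to 11 when group means were not subtracted, and relations with ARNTL from 0 to 3. In the simulation of luminal cells, with 3 rats a group and a set spread, limma recovered 4% of 2-fold changes.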

Other observations

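In the cells of the unnamed whole-gland clusters, PER2 lay at 13.4 to 24.2 CPM after TGFBRi and 5.17 to 6.86 after vehicle, and PER1 at 43.3 to 51.95 and 24.7 to 30.5, without overlap, while CLOCK was 11.2 to 16.9 and 8.86 to 16.0. The largest of these clusters held 3969 cells at a median depth of 0.257 of that of its samples. A single collection per rat gives no period or phase in hours. The single-cell levels of HLF rest on few UMIs, and whole-gland vehicle values rest on 3 rats.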
